A study of Caenorhabditis elegans with 12 samples.

Results

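The genes described here make, reduce, recycle and deaminate pyrimidine nucleotides and the deoxynucleotides used for DNA. They were 10 of the 46726 gene IDs counted: tyms-1, dut-1, dhfr-1, rnr-1, rnr-2, pyr-1, umps-1, upp-1, cdd-1 and cdd-2. They were chosen by symbol for their known function, with no measured value in the rule, but with earlier results of these data already known. All 10 passed the filter on low counts. Poly(A)-selected RNA of whole Caenorhabditis elegans was sequenced in 12 libraries, in 4 groups of 3. Wild-type animals of strain N2 were collected at day 0 and at day 5 of adulthood, and so were animals carrying mir-71(n4115), an allele of a microRNA gene. All 4 groups, the wild type included, were kept at 20 °C and were transferred, about when they became adults, onto 5-fluorodeoxyuridine at 0.1 mg/mL, a drug that blocks DNA synthesis in the eggs and so keeps adult cohorts free of progeny. No drug-free animals were analysed here. Age and time on the drug rose together, so the 2 cannot be told apart in any comparison of day 5 with day 0. The mutants were 1 allele. The counts do not check the genotype, because the mature microRNA is not polyadenylated and mir-71 had 0 counts in all 12 libraries.

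Pyrimidines are built from small precursors as UMP, from which the other pyrimidine nucleotides are derived, or are recovered from nucleosides by salvage enzymes. Ribonucleotide reductase turns ribonucleotides into deoxyribonucleotides, and thymidylate synthase then methylates dUMP to dTMP, the precursor of the thymine in DNA. In the adult worm the somatic cells no longer divide, and DNA is replicated in the germline and in embryos. The drug bears directly on this pathway: cells convert 5-fluorodeoxyuridine to its monophosphate, which inhibits thymidylate synthase, the product of tyms-1. Levels below are counts per mega-count, or M counts, (CPM) of TMM-scaled library size, given for replicates 1, 2 and 3, and then as mean ± SD (n = 3). Changes are log2 fold changes ± SE from the quasi-likelihood test of edgeR, and p values were adjusted by Benjamini-Hochberg over the 16764 genes tested. A gene rose or fell where that adjusted p was under 0.05.

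The 3 genes of thymidylate supply were higher at day 5 than at day 0 in N2, tyms-1 the most. The gene for thymidylate synthase, tyms-1 (WBGene00022455, WBcel235 chromosome I, 5138250 to 5139382, plus strand), stood at 12.0, 6.52 and 12.0 CPM in N2 at day 0 and at 55.7, 52.6 and 56.1 CPM at day 5. In mir-71 mutants it stood at 16, 9.47 and 11.9 CPM at day 0 and at 51, 51 and 47.9 CPM at day 5. Every day 5 library lay above every day 0 library, and the day 5 libraries lay close together. The means in N2 were 10.2 ± 3.16 and 54.8 ± 1.90 CPM, and tyms-1 rose 5.40-fold (95% interval 3.76 to 7.75, adjusted p = 8.75e-06). The mutant means were 12.5 ± 3.30 and 50.0 ± 1.83 CPM, a rise of 4.01-fold (2.81 to 5.72, adjusted p = 2.59e-05). Of all genes tested, 2.17% had a greater log2 change than tyms-1 in N2 and 4.36% in mutants.

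The gene for dUTPase, dut-1 (WBGene00010609, chromosome I, 9585417 to 9587203, plus strand), whose enzyme hydrolyses dUTP to dUMP and so keeps uracil out of DNA and feeds thymidylate synthase, stood at 159, 101 and 145 CPM in N2 at day 0. It reached 329, 249 and 349.8 CPM there at day 5. The mutants had 197, 104 and 180.4 CPM at day 0 and 258, 283 and 266 CPM at day 5. The ages did not overlap in either genotype, and replicate 2 was the lowest day 0 library in both. In N2 dut-1 rose by a log2 of 1.19 ± 0.23 (adjusted p = 0.000985), and in mutants by 0.75 ± 0.23 (adjusted p = 0.0158).

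Dihydrofolate reductase, encoded by dhfr-1 (WBGene00007974, chromosome I, 8736213 to 8737038, plus strand), regenerates the folate that thymidylate synthase uses up. Its transcript was at 49.7, 44.5 and 41.7 CPM in N2 at day 0 and at 64.3, 73.5 and 68.4 CPM at day 5. In mutants it was at 72.5, 42.9 and 51.6 CPM at day 0 and at 60.2, 58.6 and 55.3 CPM at day 5. The N2 ages stood apart, whereas the mutant day 5 values lay within the spread of day 0. It rose in N2 by a log2 of 0.60 ± 0.17 (adjusted p = 0.00925). The mutant value, 0.06 ± 0.17 with a 95% interval on the fold of 0.812 to 1.34, did not pass (adjusted p = 0.786).

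Both subunit genes of ribonucleotide reductase rose with age in both genotypes. The large, catalytic subunit gene rnr-1 (WBGene00004391, chromosome III, 9225339 to 9228798, minus strand) was at 197, 189 and 240.2 CPM in N2 at day 0 and at 391.7, 327 and 449 CPM at day 5. Mutants had 151.3, 189 and 194 CPM at day 0 and 234, 311 and 290.4 CPM at day 5. All day 5 libraries of a genotype lay above its day 0 libraries, and the 3 mutant libraries lay below the 3 N2 libraries at day 5. The rise was 0.90 ± 0.16 on the log2 scale in N2 (adjusted p = 0.000588) and 0.65 ± 0.16 in mutants (adjusted p = 0.00491). Without the 3 day 0 libraries that lay nearest to day 5 (replicate 1 of N2 and replicates 1 and 3 of the mutants), a setting chosen after the data were seen, the mutant value was 0.53 (adjusted p = 0.0800). That setting leaves the mutants 1 day 0 library, replicate 2, which is assumed to vary like the other groups, and it leaves N2 2.

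The small, radical-bearing subunit gene rnr-2 (WBGene00004392, chromosome III, 4093308 to 4094921, minus strand) was at 269.95, 164 and 224 CPM in N2 at day 0 and at 489, 422 and 516 CPM at day 5. In mutants it was at 336, 162 and 266 CPM and then at 446, 480.2 and 399.6 CPM. The ages stood apart in both genotypes, and day 0 was spread more widely in mutants than in N2. In N2 rnr-2 rose by 1.12 ± 0.24 on the log2 scale (adjusted p = 0.00185) and in mutants by 0.80 ± 0.24 (adjusted p = 0.0135). Leaving out replicate 3 of the mutants at day 0 gave 0.74 for the mutants, with an adjusted p of 0.0558, the highest of its 23 alternatives.

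The genes at the start and the end of UMP synthesis changed in opposite directions. At the start, pyr-1 (WBGene00004259, chromosome II, 8651109 to 8658726, plus strand) encodes the multifunctional enzyme of the first steps, the worm's counterpart of mammalian CAD. It was at 142.5, 115 and 157 CPM in N2 at day 0 and at 63.5, 56.0 and 72.0 CPM at day 5. Mutants had 89.8, 116 and 112 CPM at day 0 and 53.4, 55.4 and 59.5 CPM at day 5. Every day 5 library lay below every day 0 library. The fall was 1.11 ± 0.15 on the log2 scale in N2, to 0.462 of the day 0 level (adjusted p = 6.05e-05). In mutants pyr-1 reached 0.531 of the day 0 level (adjusted p = 0.000238).

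At the end of the route, umps-1 (WBGene00011559, chromosome III, 10355837 to 10357648, minus strand) encodes UMP synthase, which turns orotate into UMP. In N2 it stood at 75.0, 68.5 and 79.9 CPM at day 0 and at 150.5, 115 and 149.7 CPM at day 5. In mutants the values were 82.7, 64.0 and 83.6 CPM and then 112, 125 and 121 CPM. All day 5 libraries were above all day 0 libraries. It rose 1.86-fold in N2 (log2 0.89 ± 0.14, adjusted p = 0.000211) and 1.56-fold in mutants (0.64 ± 0.14, adjusted p = 0.00212).

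Among the salvage genes, upp-1 rose and cdd-1 fell in both genotypes, and cdd-2 fell in mutants and did not pass in N2. Uridine phosphorylase, the product of upp-1 (WBGene00022817, chromosome III, 7641034 to 7643101, minus strand), splits uridine into uracil and a sugar phosphate. In N2 upp-1 was at 68.5, 66.6 and 68.8 CPM at day 0 and at 168, 146 and 158 CPM at day 5. Mutants had 71.7, 86.5 and 74.3 CPM at day 0 and 188, 198 and 152 CPM at day 5. The day 0 values in N2 were the tightest of any gene of the set, and both genotypes more than doubled. The rise was 1.21 ± 0.12 on the log2 scale in N2 (2.31-fold, adjusted p = 1.11e-05), and 1.21 ± 0.12 in mutants (2.31-fold, adjusted p = 9.78e-06).

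The paralogs cdd-1 and cdd-2 encode cytidine deaminases, which convert cytidine and deoxycytidine to uridine and deoxyuridine. In N2 cdd-1 (WBGene00000391, X chromosome, 8208748 to 8211149, minus strand) was at 12.1, 30.7 and 24.6 CPM at day 0 and at 6.33, 7.03 and 4.82 CPM at day 5. In mutants it was at 10.11, 32.6 and 15.2 CPM and then at 6.06, 6.91 and 10 CPM. Replicate 2 was the highest day 0 library in both genotypes, and in mutants the lowest day 0 library barely cleared the highest day 5 library. In N2 cdd-1 fell to 0.271 of its day 0 level (95% interval 0.141 to 0.519, adjusted p = 0.00288), and in mutants to 0.396 (0.210 to 0.747, adjusted p = 0.0181). The mutant call was lost without replicate 2 at day 0 (log2 -0.72, adjusted p = 0.110), and without replicate 1 or 2 at day 5 (adjusted p = 0.0699 and 0.0607).

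For cdd-2 (WBGene00000392, chromosome IV, 7547118 to 7547893, minus strand) the N2 values were 41.1, 32.1 and 32.6 CPM at day 0 and 28.2, 28.7 and 33.0 CPM at day 5. The mutant values were 58.4, 29.1 and 36.7 CPM and then 22.8, 27.4 and 22.4 CPM. The N2 ages overlapped and the mutant ages did not. The log2 change was -0.24 ± 0.22 in N2 (adjusted p = 0.394), which did not pass, and -0.77 ± 0.22 in mutants (adjusted p = 0.0108). The mutant call was lost with a replicate block in a fit of the mutant libraries alone (-0.75, adjusted p = 0.0762). It was also lost without the 3 day 0 libraries nearest to day 5 (-0.30, adjusted p = 0.236), where the 1 mutant library left at day 0 was the lowest of the 3 for cdd-2, and without replicate 1 of the mutants at day 0 the value was -0.49, still past the threshold.

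Some of these transcripts share bases with other genes, and the sources used here do not give whether reads were counted by strand. An opposite-strand gene covers 41 of the 1033 exon bases of tyms-1, 56 of 1549 in dut-1, 10 of 1386 in rnr-2 and 45 of 1091 in upp-1. The partner of tyms-1, the noncoding Y110A7A.24, was not counted on its own. The partners of dut-1 (K07A1.3, 1475 counts against 105606), rnr-2 (C03C10.2, 1381 against 171412) and upp-1 (fbn-1, 949 against 61491) had few counts over all libraries. Gene cdd-2 shared no exon bases but lies on the same strand within an intron of pam-1, which had 142947 counts against 16683. How reads common to the cdd paralogs would be split is likewise not given.

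In total 7 of the 10 genes rose and 2 fell with age in N2, and 6 rose and 3 fell in mutants. Such calls were common in these data: 52.1% of all tested genes passed in N2, 23.8% as higher and 28.2% as lower. In mutants 52.3% passed, 24.9% as higher and 27.4% as lower. The median log2 change of the 10 genes was 0.90 in N2 and 0.64 in mutants, beside -0.09 and 0.01 over all tested genes. The CPM of the 2 ages did not overlap for 9 of the 10 genes in N2 and for 9 in mutants, against 62% and 59.1% of all tested genes. The comparisons in the 2 genotypes share no library, and 8 of the 10 genes passed in the same direction in both. The 2 comparisons were not fully independent, because they came from the same fit. Same-number day 0 libraries of the 2 genotypes also deviated together (correlations 0.285 to 0.758). The share of all tested genes that passed in the same direction in both was not counted.

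In the main fit the change was closer to 0 in mutants than in N2 for 9 of the 10 genes, the exception being cdd-2. The share of all tested genes for which this held was not counted. Medians of other lists given below were also closer to 0 in mutants, as for DNA replication (0.72 in N2 and 0.44 in mutants). The same held for body wall muscle markers (-3.07 and -2.02). Medians of the other thymidylate (-0.21 and -0.28), pyrimidine (0.02 and -0.04) and purine lists (-0.02 and -0.29) were farther from 0. The difference between the genotypes in the change with age did not pass for any of the 10 (edgeR, adjusted p from 0.325 to 1.00, against 0.555% of all tested genes that passed), nor did it with DESeq2. At an unadjusted p under 0.05 there was 1 gene, dhfr-1, whose change was lower in mutants by a log2 of 0.54 ± 0.24 (adjusted p = 0.325). The interval of that difference, as a ratio of folds, was 0.482 to 0.979 for dhfr-1 and 0.457 to 1.21 for tyms-1. For upp-1, whose changes were nearly equal, the interval was 0.775 to 1.29. For dut-1 and rnr-2 the smaller change in mutants was not kept under 1 choice of day 0 libraries, made after the data were seen. Without the 3 day 0 libraries nearest to day 5, the mutants keep 1 day 0 library. There dut-1 changed by 1.31 in N2 and 1.33 in mutants, and rnr-2 by 1.28 and 1.41. In that setting cdd-2 again changed more in mutants, and each of the other genes changed less.

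**Figure D1:**
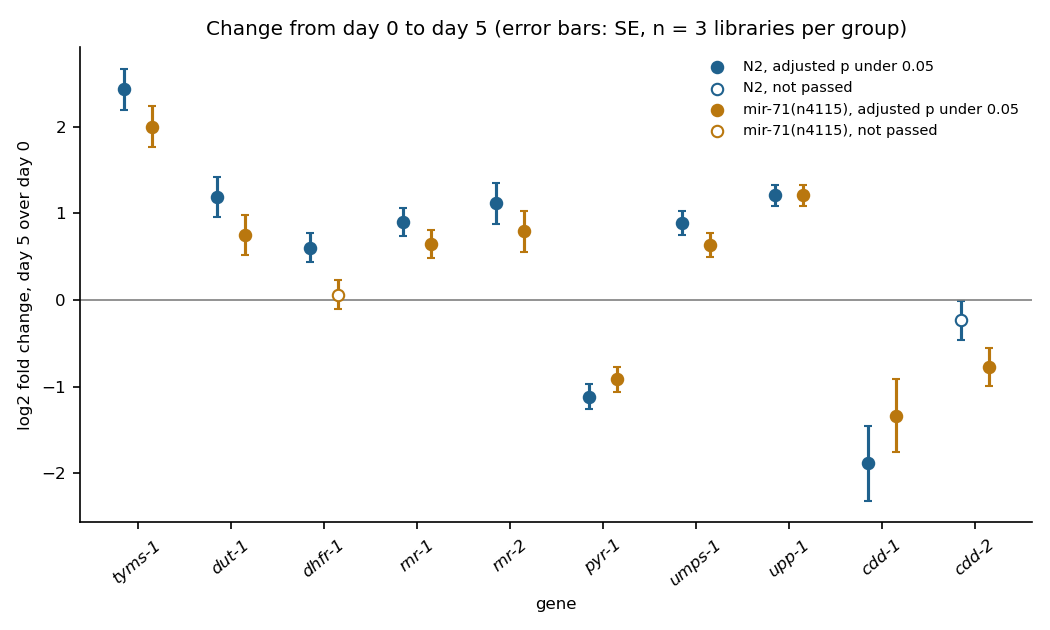
Log2 fold change from day 0 to day 5 of each of the 10 genes in N2 and in mir-71 mutants, with bars of 1 SE from the edgeR fit. Both genotypes place tyms-1 highest (2.43 and 2.00), cdd-1 lowest (-1.89 and -1.34) and upp-1 at 1.21.

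**Figure D2:**
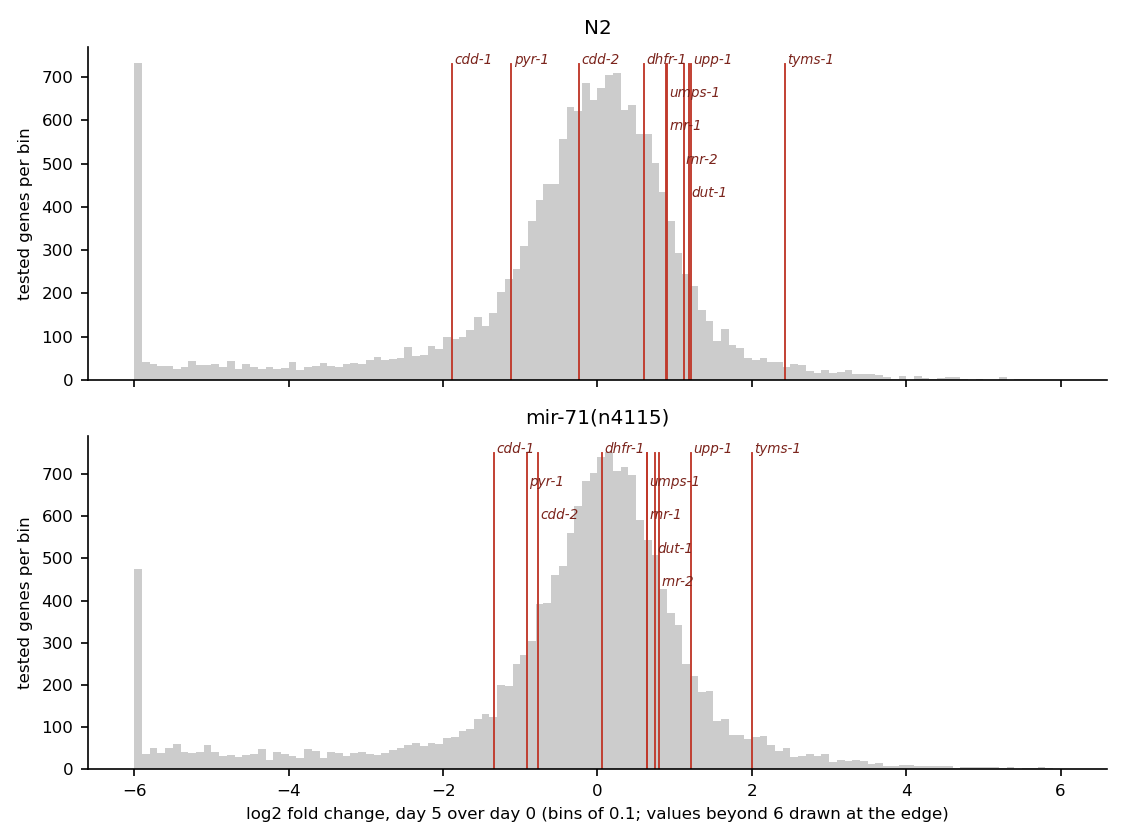
Distribution of the log2 fold change with age over the 16764 genes tested, in N2 and in mir-71 mutants, with the 10 genes marked. The median of all genes is -0.09 in N2 and 0.01 in mutants, and tyms-1 lies in the upper tail of both.

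Between the genotypes none of the 10 genes passed at day 0 (edgeR, 0.131% of all tested genes passed, which was 22 genes, or 62 with a replicate block in a fit of the day 0 libraries). The same count of 0 came from DESeq2. The ratios of mutants to N2 ran from 0.765 for pyr-1 to 1.23 for dhfr-1. The pyr-1 ratio had a 95% interval of 0.615 to 0.952 and was the 1 gene with an unadjusted p under 0.05, but its adjusted p was 0.906. The widest interval was that of cdd-1, 0.463 to 1.60. Only upp-1 had groups that did not overlap at day 0, with mutants higher, against 9.32% of all tested genes.

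At day 5 none of the 10 passed either, while 10.7% of all tested genes did, 7.63% as higher in mutants and 3.1% as lower. The ratio nearest to a call was that of rnr-1, 0.716 in mutants relative to N2 (95% interval 0.562 to 0.914, adjusted p = 0.0738), the 1 gene with an unadjusted p under 0.05. It was called lower at day 5 under 6 of the 23 alternatives tried, DESeq2 among them (log2 -0.57, adjusted p = 0.0325), with adjusted p from 0.0325 to 0.287 over the alternatives. The mutants lay wholly below N2 for 4 genes, rnr-1, tyms-1, dhfr-1 and cdd-2, and wholly above for 0, against 38.4% of all tested genes in either direction. The 4 of 10 is thus close to the share of all tested genes, whose shares by direction were not counted. For tyms-1 the ratio was 0.912 with an interval of 0.649 to 1.28, and for rnr-2 it was 0.929 with an interval of 0.652 to 1.33. Averaged over both ages 0 of the 10 passed with edgeR (5.21% of all tested genes did), with 3 at an unadjusted p under 0.05. DESeq2 called 1, rnr-1.

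Per kilobase of exon, rnr-2 was the most abundant of the 10 transcripts in all 4 groups, at 158 ± 38.3 CPM per kb in N2 at day 0 and 343 ± 35.0 at day 5. In mutants it stood at 184 ± 63.1 and 319 ± 29.2 CPM per kb. Second in every group was dut-1, whose libraries overlapped those of rnr-2 in the mutants at day 0 and not in the other groups. At day 0 tyms-1 was the least abundant, with 9.85 ± 3.06 CPM per kb in N2, below all libraries of pyr-1, and 12.1 ± 3.20 in mutants, where it overlapped pyr-1. At day 5 it had passed cdd-2, pyr-1 and cdd-1 by mean level, at 53.1 ± 1.84 CPM per kb in N2 and 48.4 ± 1.77 in mutants. The range of cdd-2 overlapped that of tyms-1 in N2 but not in mutants. The least abundant transcripts at day 5 were cdd-1 (6.71 ± 1.25) and pyr-1 (9.21 ± 1.15) in N2 and pyr-1 (8.09 ± 0.45) and cdd-1 (8.5 ± 2.33) in mutants, all in CPM per kb, and those of the mutants overlapped.

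Ratios of counts within a library do not depend on how libraries were scaled. In these libraries the tyms-1 transcript changed more with age than those of dhfr-1 and dut-1. The count ratio of tyms-1 to dhfr-1 was 0.242, 0.147 and 0.287 in N2 at day 0 and 0.865, 0.716 and 0.821 at day 5. In mutants the ratio was 0.221, 0.221 and 0.231 at day 0 and 0.847, 0.871 and 0.865 at day 5. The ages lay far apart in both genotypes, and the mutant libraries of an age were almost equal. The ratio rose 3.68-fold in N2 and 3.84-fold in mutants. Each had an exact two-sided permutation p of 0.1, the smallest that 3 libraries against 3 can give (adjusted p = 0.25 over the 20 ratio comparisons made). The ratio of tyms-1 to dut-1 rose 2.43-fold in N2 and 2.36-fold in mutants, again with no overlap and an exact permutation p of 0.1.

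For the reductase subunits, the count ratio of rnr-1 to rnr-2 was 0.729, 1.15 and 1.07 in N2 at day 0 and 0.801, 0.774 and 0.870 at day 5. In mutants it was 0.451, 1.16 and 0.729 and then 0.525, 0.649 and 0.727. Day 0 covered a wide range in both genotypes and overlapped day 5 (exact permutation p = 0.4 in N2 and 0.7 in mutants). At day 5 the 3 mutant ratios were all below the 3 N2 ratios, by a factor of 0.771 (exact permutation p = 0.1, adjusted 0.25).

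The count ratio of upp-1 to umps-1, a salvage gene to a synthesis gene, was 1.25-fold higher at day 5 in N2 without overlap (exact permutation p = 0.1) and 1.47-fold higher in mutants with overlap (exact permutation p = 0.2). For cdd-1 to cdd-2 the ratio at day 5 was 0.336 of that at day 0 in N2 (exact permutation p = 0.1, no overlap) and 0.720 in mutants (exact permutation p = 0.7). In mutants the day 0 ratios of 0.173, 1.12 and 0.415 spanned those at day 5, which were 0.266, 0.252 and 0.448. Between genotypes at day 5 it was 1.55-fold higher in mutants, again without overlap (exact permutation p = 0.1).

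**Figure D3:**
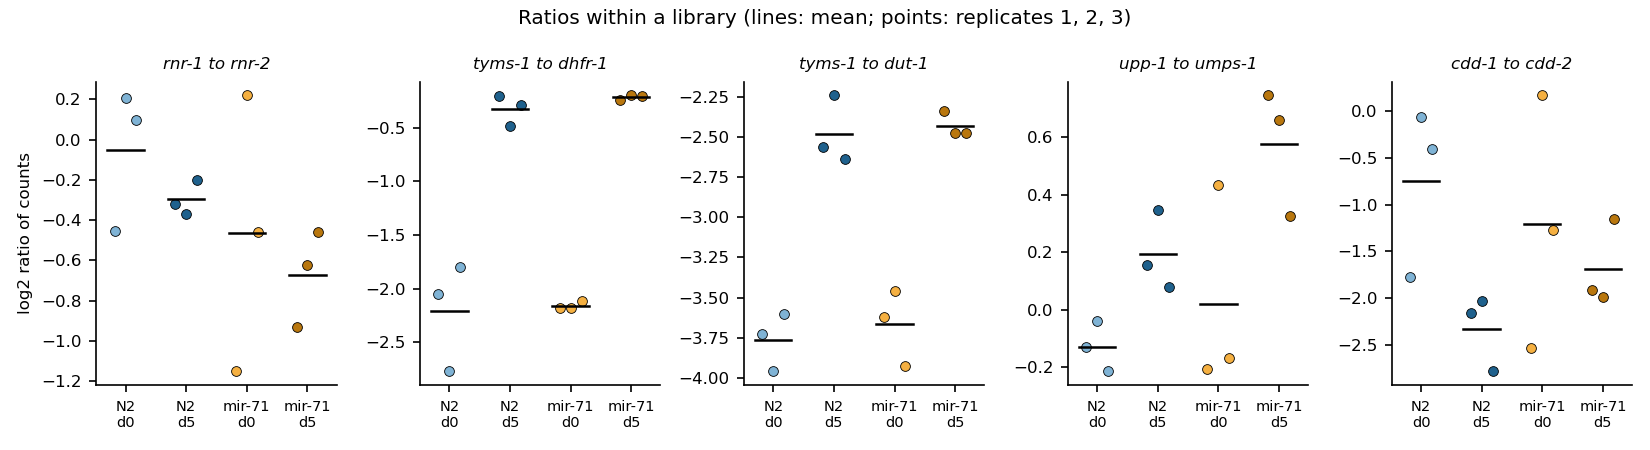
Log2 ratio of the counts of 2 genes within each library, for 5 gene pairs by genotype and day, 1 point per library. The tyms-1 to dhfr-1 ratio moves from a mean of -2.21 to -0.33 in N2 and from -2.16 to -0.22 in mutants.

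The day 0 libraries spread widely, and most of the 10 genes were lowest in the library farthest from day 5. On the first principal component of all genes, day 0 ran from -153 to -75.4 and day 5 from 90.3 to 134, with totals of 20.5 to 65.2 M counts per library. Replicate 2, farthest from day 5 at day 0 in both genotypes, had the lowest level of 8 of the 10 genes in N2 and of 6 in mutants. It had the highest level of 1 gene in N2 and of 3 in mutants. Not every gene varied as its change with age would give. The faller pyr-1 was lowest there in N2, and the riser upp-1 was highest there in mutants. The tyms-1 level of replicate 2 was 6.52 and 9.47 CPM, against 11.9 to 16 CPM in the other 4 day 0 libraries. The summed level of 10 oocyte markers was also lowest in that replicate, 2560 CPM in N2 and 2728 CPM in mutants, and that of 10 sperm markers was highest, 499.98 and 489 CPM. Without the 3 day 0 libraries nearest to day 5 the numbers of genes called were 9 in N2, with 2 libraries left at day 0, and 7 in mutants, with 1 left.

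Markers of tissues moved with age beside these genes. All 10 oocyte markers rose in both genotypes, their summed level going from 2560 to 3747 CPM at day 0 to 6617 to 8886 CPM at day 5 in N2, and from 2728 to 3463 to 5989 to 7269 CPM in mutants. Of 14 germline markers 5 rose and 4 fell in N2 and 3 rose and 6 fell in mutants, with sums of 2470 to 3200 and 2435 to 3448 CPM in N2, and of 2158 to 2614 and 1900 to 2455 CPM in mutants. Early embryo markers were scarce, with sums of at most 23.5 CPM over 13 genes in any library. Of 8 tested, 6 rose and 1 fell in N2, and 5 rose and 0 fell in mutants. Of 10 intestine markers 3 rose and 5 fell in N2, and 1 rose and 3 fell in mutants. All 8 body wall muscle markers fell in both genotypes, from 9519 to 16636 CPM to 1428 to 1655 CPM in N2. Among 10 sperm markers 9 fell in both, and of 8 epidermis markers 4 fell and 1 rose in both. The part of these shifts in the changes of the 10 genes was not tested, and in RNA of whole animals fewer cells of a type and less RNA per cell cannot be told apart.

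As sets, the other listed genes of the pathway that were tested did not rise with tyms-1. Only 7 of 13 further genes listed for thymidylate and deoxynucleotide supply were tested. Of these 7, 1 rose and 1 fell with age in N2, and 1 rose and 2 fell in mutants, with medians of -0.21 and -0.28. Thioredoxin reductase, trxr-1, rose (log2 0.48 ± 0.11 in N2 and 0.49 ± 0.11 in mutants), and the nucleoside diphosphate kinase gene ndk-1 fell (-0.49 ± 0.14 and -0.57 ± 0.14). The serine hydroxymethyltransferase gene mel-32, which charges folate with the carbon for dTMP, was at -0.21 ± 0.12 in N2 (adjusted p = 0.160) and fell in mutants (-0.34 ± 0.12, adjusted p = 0.0285), a call made under 15 of 23 alternatives (adjusted p up to 0.142). Among 20 other genes of pyrimidine synthesis, transport, salvage and breakdown, 5 rose and 5 fell in N2, and 4 rose and 6 fell in mutants, with medians of 0.02 and -0.04. Over all tested genes 23.8% rose and 28.2% fell in N2, and 24.9% rose and 27.4% fell in mutants. The nucleoside transporter gene ent-1 rose in both (0.99 ± 0.15 and 0.93 ± 0.15), and ent-6, of the same family, rose in N2 (0.88 ± 0.14) and was at 0.34 ± 0.14 in mutants (adjusted p = 0.0580, and from 0.0104 to 0.220 over the alternatives). Another gene of the family, ent-3, fell from 9.05, 21.8 and 18.5 CPM to 0.0849, 0.215 and 0.0524 CPM in N2, which is at most 11 counts in a day 5 library.

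Most genes of the machinery that uses the deoxynucleotides rose with age. Of 34 DNA replication genes 28 rose and 0 fell with age in N2, and 21 rose and 0 fell in mutants, with medians of 0.72 and 0.44. They included pcn-1, the sliding clamp (1.24 ± 0.14 in N2 and 1.27 ± 0.14 in mutants), mcm-3 of the replicative helicase (1.12 ± 0.13 and 1.08 ± 0.13) and rpa-1 of the single-strand binding complex (1.08 ± 0.13 and 0.93 ± 0.13). Of 19 regulators of entry into S phase 12 rose and 1 fell in N2, and 9 rose and 1 fell in mutants, among the risers lin-52 of the DRM complex (1.25 ± 0.18 and 1.09 ± 0.18) and the phosphatase gene cdc-25.1 (0.78 ± 0.13 and 0.68 ± 0.13). The gene cki-1, an inhibitor of cyclin-dependent kinases, rose in mutants (1.63 ± 0.28), was at 0.52 ± 0.28 in N2 (adjusted p = 0.143), and was higher in mutants at day 5 (1.45 ± 0.28, adjusted p = 0.00811). The only other regulators called between genotypes at day 5 were lower in mutants, dpl-1 (-0.57 ± 0.17, adjusted p = 0.0475) and lin-9 (-0.42 ± 0.11, adjusted p = 0.0374), and both calls were lost without some single libraries (adjusted p up to 0.214 and 0.164). Of 15 genes listed as purine genes 4 rose and 4 fell in N2 and 1 rose and 6 fell in mutants. The list holds F37H8.5, whose role was not checked. This gene rose in N2 (0.92 ± 0.19) and was the 1 riser in mutants (0.73 ± 0.19). The gene for the last steps of purine synthesis, atic-1, was at 70.3, 55.1 and 52.7 CPM in N2 at day 5 and at 18, 14 and 28.9 CPM in mutants. The mutants were lower there without overlap (-1.55 ± 0.29, adjusted p = 0.00615), while the difference between the changes with age did not pass (adjusted p = 0.121, and from 0.0120 to 0.307 over the alternatives). Also at day 5, the purine nucleoside phosphorylase gene pnp-1 was higher in mutants (0.66 ± 0.17) and the primase subunit gene pri-1 was lower (-0.48 ± 0.11), calls that were each lost without some single library (adjusted p up to 0.116 and 0.0767). No gene of these 5 lists passed between genotypes at day 0.

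At day 5, 4 of the 20 other pyrimidine genes were higher in mutants than in N2 and 0 were lower, against 7.63% and 3.1% of all tested genes. They were dpyd-1, dhp-1, upb-1 and ent-4, of which the first 3 act in pyrimidine breakdown, a grouping made after their values were seen. The listed dhp-2, another dihydropyrimidinase gene, was at a log2 of 0.02 (adjusted p = 0.976) and did not pass. The 3 encode the enzymes that act in turn on uracil and thymine: dpyd-1 the dihydropyrimidine dehydrogenase, dhp-1 a dihydropyrimidinase and upb-1 the beta-ureidopropionase. The first of them also degrades 5-fluorouracil in mammals. For dpyd-1 N2 had 77.9, 91.7 and 115 CPM at day 0 and 21.7, 21.2 and 31.9 CPM at day 5, and mutants had 73.2, 121 and 110.1 CPM and then 67.6, 57.5 and 64.2 CPM. The genotypes overlapped at day 0 and stood apart at day 5, where the means were 24.9 ± 6.04 and 63.1 ± 5.16 CPM. Mutants were higher by a log2 of 1.34 ± 0.22 (adjusted p = 0.00272).

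For dhp-1 the N2 values were 9.47, 9.13 and 11.9 CPM at day 0 and 5.22, 6.42 and 7.17 CPM at day 5, and the mutant values were 7.20, 14.2 and 11 CPM and then 27.4, 24.8 and 14.8 CPM. At day 5 the lowest mutant library lay above the highest N2 library. The difference at day 5 was 1.83 ± 0.29 (adjusted p = 0.00247). In upb-1 N2 had 134, 179 and 198 CPM at day 0 and 88.8, 128 and 98.0 CPM at day 5, beside 165, 219.7 and 232 CPM and then 224, 208 and 181 CPM in mutants. Here too the day 5 groups did not overlap, and mutants were higher by 0.96 ± 0.19 (adjusted p = 0.00800). These 3 calls were made under all 23 alternatives, with adjusted p of at most 0.0200, 0.0189 and 0.0484. None of the 3 passed at day 0.

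With age dpyd-1 fell in both genotypes (log2 -1.93 ± 0.22 in N2 and -0.68 ± 0.21 in mutants), dhp-1 rose in mutants (1.05 ± 0.28) and was at -0.70 ± 0.28 in N2 (adjusted p = 0.0561, and from 0.0154 to 0.173 over the alternatives), and upb-1 fell in N2 (-0.70 ± 0.19) and was at -0.01 ± 0.18 in mutants (adjusted p = 0.979). The difference between the genotypes in the change with age did not pass for any of the 3 (adjusted p = 0.0996, 0.0851 and 0.269), but for dpyd-1 and dhp-1 it did under some of the 21 alternatives, with adjusted p down to 0.0246 and 0.00571. Their changes with age in mutants were each called under 21 of 23 alternatives: that of dpyd-1 was lost without replicate 2 of the mutants at day 0 or at day 5 (adjusted p up to 0.0612), and that of dhp-1 with a replicate block in the mutant libraries alone and without the 3 day 0 libraries nearest to day 5 (0.62, adjusted p = 0.170). The nucleoside transporter gene ent-4 was higher in mutants at day 5 (0.89 ± 0.25, adjusted p = 0.0379), but not without some single libraries (adjusted p up to 0.136). Beside this, of 10 intestine markers 4 were higher and 2 lower in mutants at day 5, with sums of 3283 to 5225 CPM against 3089 to 3287 CPM in N2. Of 8 muscle markers 3 were higher, with 2534 to 2830 against 1428 to 1655 CPM, and of 8 epidermis markers 1 was, with 687 to 909 against 463 to 524 CPM. Of 14 germline markers 3 were lower, with 1900 to 2455 against 2435 to 3448 CPM, 1 of 8 tested early embryo markers was higher, and 0 of 10 oocyte and 0 of 10 sperm markers passed. The part of those shifts was not tested.

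By Pearson correlation of log2 CPM over the 12 libraries, which all share the large split between the ages, the genes most like tyms-1 were cgt-3 (r = 0.997), T04A8.8 (0.994) and K07H8.2 (0.992). For rnr-1 they were T07C4.3 (0.998), mat-1 (0.991) and F33H2.2 (0.989), and for upp-1 nep-1 (0.992), K02D10.4 (0.985) and tbc-1 (0.979). The genes most like pyr-1 were rpoa-1, the largest subunit of RNA polymerase I (0.987), and fars-3 (0.983) and ears-1 (0.983), which encode aminoacyl-tRNA synthetases.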

How the data were processed

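The authors deposited integer read counts per gene and library, not scaled, and for the same 12 libraries log2 values that the labels name rlog. Per the submitters' processing notes, STAR 2.4.0h and DESeq2 were used with WBcel235, in steps that are not described. Which program counted the reads, with which annotation and strand setting, is not given here. All per-sample columns were used.

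Everything else was computed here with R 4.3.3. Of 46726 IDs, 43623 had a symbol and 20054 had 0 counts in every library. edgeR 4.0.16 (TMM factors of 0.868 to 1.17, filterByExpr, 16764 genes) fitted 4 group means to the 12 libraries by quasi-likelihood with 8 residual degrees of freedom. P values were adjusted by Benjamini-Hochberg within each of 6 contrasts, threshold 0.05. The SE is the absolute log2 fold change over the square root of F. The labels call the replicates biological, and their counts differed by far more than counting error (chi-square per gene of 22.8 to 308). Per kb levels use exon bases of the WBcel235 annotation. The fit was also run on simulated counts, but no outcome of that run is given or used here.

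The members and lists were chosen with earlier results of these data known. All 10 members were named, with up to 4 genes per other list by smallest p with age and up to 4 that passed between genotypes. Some list symbols were absent from the gene names used. Matched were 8 of 13 for thymidylate and deoxynucleotide supply, 20 of 25 for pyrimidine, 15 of 18 for purine, 34 of 35 for DNA replication and 19 of 19 for S phase entry. Whether the unmatched genes were counted under another name was not checked. Alternatives were RLE and upper-quartile factors, TMM without sperm, collagen and yolk families, no filter (26672 genes), DESeq2 1.42.0, rlog values with limma 3.58.1, the groups of a contrast alone, replicate blocks and left-out libraries. Same-number replicates deviated together between the genotypes at day 0 (correlations 0.285 to 0.758), and not in every pair of the other contrasts (from -0.157 to 0.240). The main fit had no replicate term, so its day 0 tests were unpaired. Pairs entered only as replicate blocks among the alternatives. Where the replicate numbers come from is not given.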

Additional observations from a re-analysis of the deposited data

How the results depend on the processing

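Of the 18 changes with age called for single members, 14 kept direction and call under every alternative, and 4, all in mutants (rnr-1, rnr-2, cdd-1, cdd-2), lost the call under at least 1. None of the 10 genes' results reversed past the threshold. Members called with age in N2 numbered 9 throughout. At day 5 the members called between genotypes went from 0 to 1, rnr-1 as lower, with DESeq2 (log2 -0.57), rlog values and limma (-0.39), the replicate block over all libraries (-0.48) and without the 3 day 0 libraries nearest to day 5 (-0.51, chosen after seeing the data), and ranged from 0 to 1 with 1 library left out (adjusted p = 0.0471 without mutant day 0 replicate 1 and 0.0381 without N2 day 5 replicate 2). Averaged over ages it was 1 with DESeq2 and with the replicate block (adjusted p = 0.0497). The replicate block ended 1 member call, cdd-2 in mutants, in the fit of those groups alone, made the rnr-1 calls just given, and changed no other member call. In mutants, leaving out the 3 day 0 libraries, so that day 5 was set against 1 library, replicate 2, moved dut-1 to 1.33, rnr-2 to 1.41 and cdd-1 to -2.13. With rlog values, which shrink low genes, the tyms-1 to dhfr-1 ratio changed with age by 1.29 (N2) and 1.34 (mutants) on the log2 scale and tyms-1 to dut-1 by 0.87 and 0.86. Upper-quartile factors moved the median of all genes with age in N2 to -0.22 and that of the members to 0.76. Over all genes calls ranged from 7460 to 9283 with age in N2, 6856 to 9282 in mutants, 0 to 62 at day 0, 602 to 3121 at day 5, 451 to 1720 averaged over ages and 10 to 531 for the difference. Fits of single groups give no separate value for those last 2. At day 5 the calls of ent-4, pnp-1, pri-1, lin-9 and dpl-1 were lost without at least 1 library. With 3 libraries per group, the members' genotype ratios are known only to within the printed intervals.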
